A study of Mus musculus with 6 samples.

Results

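The interleukin-1 and inflammasome genes examined here were 10 listed genes, taken by symbol from the raw count table: Il1a, Il1b, Il1rn, Il18, Nlrp3, Aim2, Pycard, Casp1, Casp4 and Gsdmd. All 10 were among the 17872 genes of the table, and 9 were among the 13403 genes with enough counts to test; Il1a was not. The data are poly(A) RNA-seq libraries of BV2, an immortalised microglial line from mouse, with 3 libraries in each of 2 groups. The first group was labelled Tfam knockout, made with CRISPR-Cas9, and the other was labelled WT; both carried the treatment label none and were grown in the same medium. The product of Tfam coats mitochondrial DNA and is needed to transcribe it, and the study asked what its knockout does to the transcriptome of microglial cells. The protocol names puromycin at 2 µg/mL after the knockout, and the labels leave unclear whether the WT cells received it, what the WT cells carried, and whether the knockout cells were a clone or a pool. Nothing in the labels says that replicates were separate cultures, so a p-value here speaks of the spread among these 6 libraries, and that spread may be technical.

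Interleukin-1 is made in 2 forms, IL-1α and IL-1β, that act through a shared receptor and switch on NF-kB, while the receptor antagonist encoded by Il1rn occupies that receptor without signalling. IL-1β and IL-18 are made as inactive precursors. Sensors such as NLRP3 and AIM2 join through the adaptor ASC, encoded by Pycard, to caspase-1, which cuts both precursors and also gasdermin D, whose free end forms pores in the cell membrane. Caspase-11, encoded by Casp4 in mice, cuts gasdermin D after binding lipopolysaccharide in the cytosol. In microglia and macrophages this system is commonly described in 2 steps, with transcription of Il1b and Nlrp3 first and assembly of the inflammasome afterwards; RNA counts bear on the first step only and not on cleavage or release.

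Total counts ran from 13850691 to 20889786 in the libraries labelled knockout and from 14642397 to 28418133 in the WT libraries. Levels are given in CPM, counts per 1e+06 counts after TMM scaling by library. Tfam mRNA was at 41.0, 42.7 and 43.2 CPM in the libraries labelled knockout and at 39.0, 38.5 and 37.1 CPM in the WT libraries. This transcript showed no loss under the knockout label, with a log2 fold change of 0.14 ± 0.0869 (SE) and an adjusted p of 0.193 (edgeR, quasi-likelihood F test), so it does not check the label, which is used throughout as given. Of 10 tested microglia and macrophage markers 8 fell and none rose at an adjusted p below 0.05 (edgeR), and 22.9% of all tested genes fell. Csf1r fell most (log2 fold change -1.46), at 182 ± 6.25 CPM in the libraries labelled knockout and 501 ± 12.8 CPM in the WT libraries. Cd68, the most abundant, fell less (-0.33), and Ptprc (-0.06) and Aif1 (-0.49) did not pass. Without WT 2, 6 fell, and Cd68 and Cx3cr1 did not pass. Cx3cr1 also did not pass without WT 1 or labelled knockout 2 or 3. The list summed to 2234 to 2505 CPM in the libraries labelled knockout and 3254 to 3719 CPM in the WT libraries. The microglial markers Tmem119 and Sall1 were too low to test, and P2ry12 and Itgam were not analysed here. All libraries were of the BV2 line, and in bulk RNA fewer cells carrying a marker and less of its RNA per cell cannot be told apart.

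Among the 9 tested genes, 5 rose in the libraries labelled knockout, namely Il1b, Il1rn, Nlrp3, Casp1 and Casp4, and Aim2 alone fell, where a call means that edgeR's quasi-likelihood test, adjusted over all genes, gave p below 0.05. Il1b rose 3.54-fold and Casp4 3.32-fold, while Nlrp3, Casp1 and Il1rn rose 1.42-fold, 1.35-fold and 1.31-fold. Il18, Pycard and Gsdmd did not pass the test. The comparison as a whole was broad, since the same rule called 44.2% of all tested genes, 21.3% as higher and 22.9% as lower. The median log2 fold change was 0.39 over the 9 genes and 0.00 over all tested genes. The 3 libraries of each group did not overlap for the 5 genes that rose and for Aim2, and over all tested genes the groups did not overlap for 52.9%. At an unadjusted p below 0.05, 7 of the 9 genes passed, Gsdmd being the one added, as did 51% of all tested genes. Against a stricter null of a 1.5-fold change, Il1b and Casp4 were the 2 of the 9 that passed, both higher, as did 8.16% of all tested genes in either direction and 2.9% as higher.

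**Figure D1:**
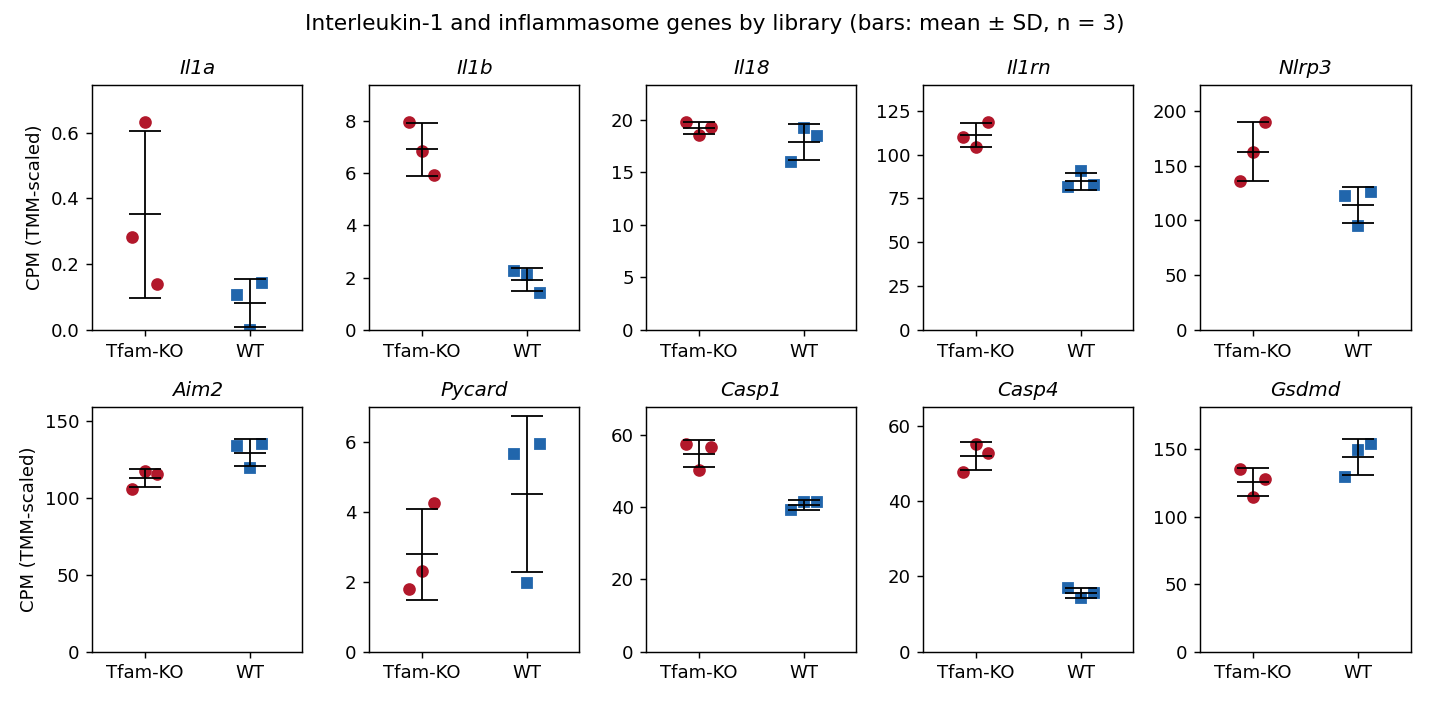
Level of each of the 10 genes in CPM, with 1 point per library and bars for the mean ± SD of 3 libraries, Tfam-KO left (circles) and WT right (squares). All Tfam-KO points lie above all WT points for Il1b, Il1rn, Nlrp3, Casp1 and Casp4 and below them for Aim2, and the groups overlap for Il1a, Il18, Pycard and Gsdmd.

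**Figure D2:**
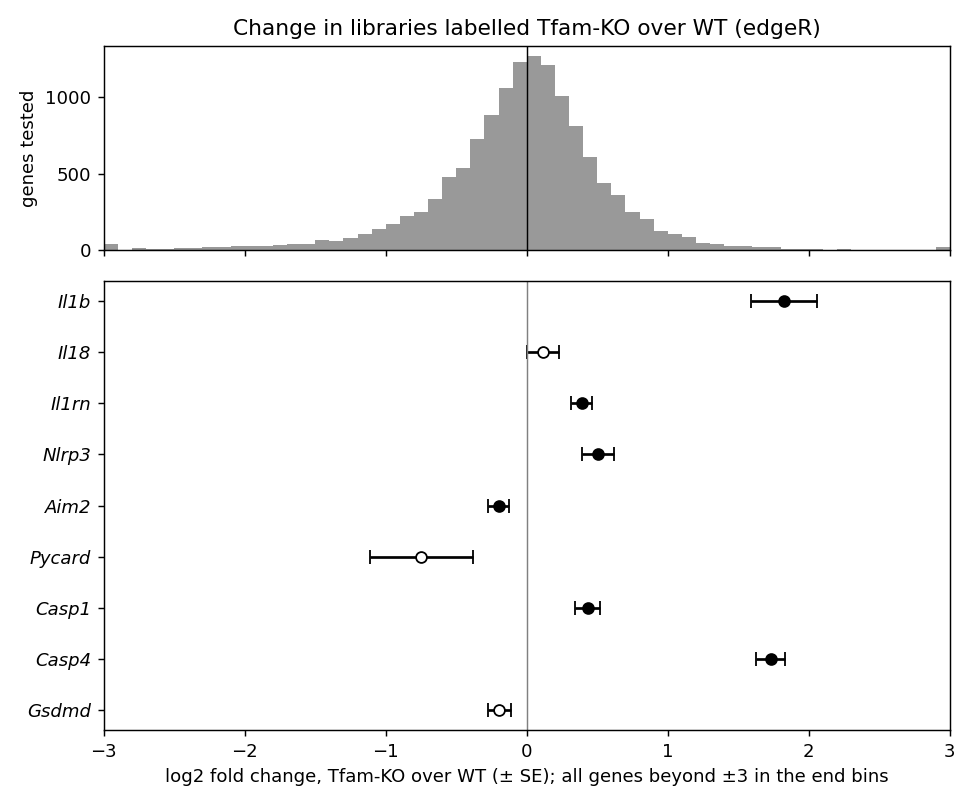
The upper panel is a histogram of log2 fold changes, Tfam-KO over WT, of all 13403 tested genes, with values beyond 3 in either direction in the end bins. The lower panel shows the 9 tested genes with their SE on the same axis, filled where the adjusted p is below 0.05; Il1b at 1.82 and Casp4 at 1.73 lie far to the right, and the other 7 lie between -0.75 and 0.50.

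The promoters of Il1b and Casp4, the pair with the largest increases, and of the sensor gene Nlrp3 are shown. Il1rn and Casp1 rose as well and are not shown. The gene family is known for control by NF-kB, and a part of NF-kB in these increases was not tested. Each stretch is the 250 bases before the annotated start, 5′ to 3′ in the direction of transcription, from RefSeq on GRCm38.p6; capitals mark matches to the NF-kB consensus and to the TATA box letters TATAAA on either strand. The windows are chr2:129371140-129371389 on the minus strand for Il1b, chr9:5308599-5308848 on the plus strand for the first Casp4 promoter, and chr11:59541319-59541568 on the plus strand for the first Nlrp3 promoter.
Il1b: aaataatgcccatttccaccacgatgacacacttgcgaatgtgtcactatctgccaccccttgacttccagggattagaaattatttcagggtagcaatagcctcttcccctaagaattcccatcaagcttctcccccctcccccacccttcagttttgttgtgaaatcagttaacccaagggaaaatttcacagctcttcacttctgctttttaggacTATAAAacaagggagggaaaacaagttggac
Casp4: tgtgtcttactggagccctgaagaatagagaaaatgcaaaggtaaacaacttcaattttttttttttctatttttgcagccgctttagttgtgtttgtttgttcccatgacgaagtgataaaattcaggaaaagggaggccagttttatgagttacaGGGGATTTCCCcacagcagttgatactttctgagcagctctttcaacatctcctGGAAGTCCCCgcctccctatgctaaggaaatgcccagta
Nlrp3: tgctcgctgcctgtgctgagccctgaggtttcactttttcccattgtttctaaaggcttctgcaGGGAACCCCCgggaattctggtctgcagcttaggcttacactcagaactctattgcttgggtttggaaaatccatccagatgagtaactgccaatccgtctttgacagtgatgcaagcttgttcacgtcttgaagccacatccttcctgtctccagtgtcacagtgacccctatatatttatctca
In the Casp4 window the NF-kB consensus matched at 3 places, at -93 and, overlapping it, -92, and at -39, counting back from the start. In the Nlrp3 window it matched once, at -186. The Il1b window held no match to it and had a TATA box at -31. Of 32851 promoter windows of that length, 7.25% held the NF-kB consensus and 12.4% held TATAAA. In all, 13 promoters of 9 of the 10 genes were in the table. The second Casp4 promoter, whose start lies close by, held the same matches. Neither the second Nlrp3 window nor any window of Il1a, Il18, Pycard or Aim2 held the NF-kB consensus. Nor did any window of Il1rn or Casp1, which also rose. That says only that those letters are not in these windows. TATAAA was also present in Il1a at -32 and, on the opposite strand only, in Il18 at -175. The AP-1 letters TGANTCA, found in 6.75% of all windows, were in Il1a at -12 and in the first Il1rn promoter at -141. The PU.1 letters GAGGAA (23.3% of all windows) were in windows of Il1a, Nlrp3, Pycard, Casp1 and Aim2, the C/EBP letters TTNNGNAA (36.8%) in windows of 7 genes, and the interferon-response letters GAAANNGAA (7.13%) in none. The PU.1 match of Il1a lies within its C/EBP match. A match is a match of letters and does not show binding.

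Of the ligands, Il1b, which encodes the IL-1β precursor, stood at 7.93, 6.84 and 5.93 CPM in the libraries labelled knockout and at 2.24, 2.09 and 1.42 CPM in the WT libraries, from raw counts of 168, 119 and 85 and of 63, 32 and 20. The lowest labelled knockout library was above the highest WT library. Its log2 fold change was 1.82 ± 0.233 (SE; adjusted p = 7.37e-06, edgeR), and it ran from 1.68 to 1.99 over the alternatives tried, each left-out library included. Even so Il1b remained a minor transcript in both groups: per kilobase of exon, its mean level over the 6 libraries lay at the 29.1 percentile of 13337 tested genes with a known length. Reads from a 25-base stretch shared with the antisense transcript Il1bos could not be told apart without strand; Il1bos had 7, 0 and 4 counts in the libraries labelled knockout and 6, 0 and 1 in the WT libraries.

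Il1a, which encodes IL-1α, was close to undetected. It had 6, 11 and 2 raw counts in the libraries labelled knockout and 3, 0 and 2 in the WT libraries. The groups overlapped. Summed over libraries these were 19 and 5 counts, a ratio of 4.14 per effective library size with an exact 95% interval of 1.49 to 14.2 that covers counting error only. Tested without the filter on low counts, its log2 fold change was 1.99 ± 1.09 (SE; adjusted p = 0.178, edgeR). It shares 222 exon bases with the antisense gene Gm14023, itself at 12, 6 and 1 counts in the libraries labelled knockout and 3, 3 and 2 in the WT libraries, so its value is uncertain. Among 10 symbols of other IL-1 family ligands, Il1f9 (IL-36γ) alone was in the table, with 4, 9 and 0 counts in the libraries labelled knockout and 0 in each WT library, too low to test.

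Il18, the other ligand that caspase-1 activates, was at 19.8, 18.6 and 19.3 CPM in the libraries labelled knockout and at 16.0, 19.2 and 18.5 CPM in the WT libraries. The groups overlapped, and WT replicate 1 was the lowest of the 6. The log2 fold change was 0.11 ± 0.113 (SE; adjusted p = 0.448, edgeR).

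Il1rn, the receptor antagonist, was far more abundant than the agonist transcripts. It was at 110, 104 and 118 CPM in the libraries labelled knockout and at 81.2, 90.4 and 82.9 CPM in the WT libraries. Every labelled knockout library was above every WT library, and the log2 fold change was 0.39 ± 0.0769 (SE; adjusted p = 0.000561, edgeR). Agonist and antagonist rose together but by different amounts. Per kilobase of exon, Il1rn and Il1b averaged 20.1 and 3.62 CPM in the libraries labelled knockout and 15.3 and 1.00 in the WT libraries. Ratios of reads are larger, since they are not corrected for exon length, 5535 bases for Il1rn and 1907 for Il1b. Within a library there were 13.9, 15.3 and 20.0 reads of Il1rn for each read of Il1b in the libraries labelled knockout. In the WT libraries there were 36.3, 43.3 and 58.5. The groups did not overlap, and the ratio of Il1b to Il1rn was 2.79-fold higher in the libraries labelled knockout (log2 difference 1.48). In a two-sided exact permutation test p was 0.1, the smallest that 3 against 3 allows, and 0.133 after Benjamini-Hochberg adjustment over 4 ratios. Adding the Il1a reads to those of Il1b left the log2 difference at 1.48, with the same p values.

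**Figure D3:**
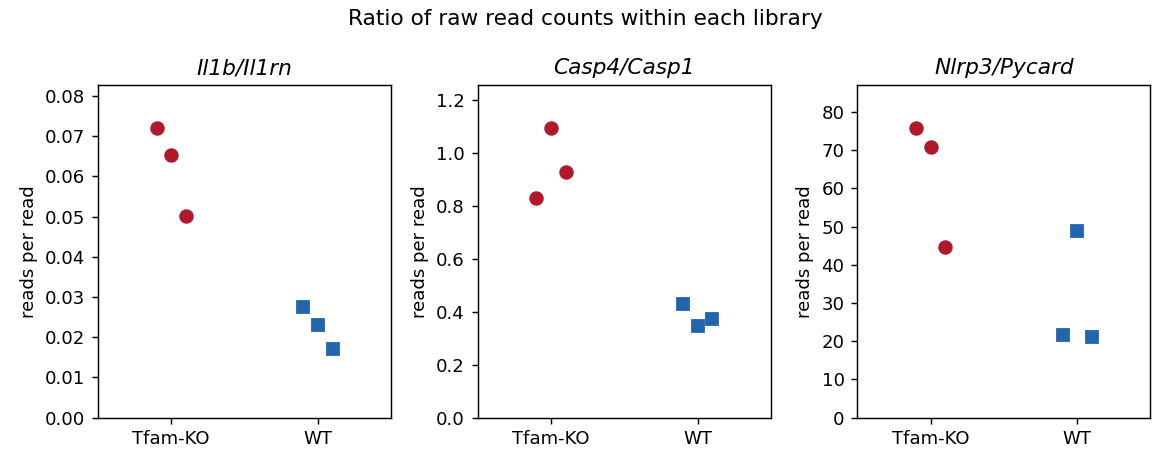
Ratio of raw read counts of a pair of genes within each library, 1 point per library, Tfam-KO left (circles) and WT right (squares). The 3 Tfam-KO libraries lie above the 3 WT libraries for Il1b over Il1rn (0.0501 to 0.0720 against 0.0171 to 0.0276) and for Casp4 over Casp1 (0.832 to 1.09 against 0.345 to 0.431), and the groups overlap for Nlrp3 over Pycard (44.6 to 75.7 against 21.1 to 48.8).

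The sensors moved in opposite directions. Nlrp3, which responds to potassium loss and membrane damage, was at 136, 162 and 190 CPM in the libraries labelled knockout and at 122, 95.4 and 126 CPM in the WT libraries. The groups did not overlap, but the gap between labelled knockout 1 and WT 3 was small beside the spread within either group. Nlrp3 rose by a log2 fold change of 0.50 ± 0.113 (SE; adjusted p = 0.00153, edgeR), and the call held with each library left out, with adjusted p at most 0.0145. Aim2, which binds double-stranded DNA in the cytosol, was at 106, 117 and 115 CPM in the libraries labelled knockout and at 134, 120 and 135 CPM in the WT libraries. WT 2 lay close to the labelled knockout values. The log2 fold change of -0.20 ± 0.0758 (SE) passed narrowly, at an adjusted p of 0.0424 with edgeR. Aim2 also matched the gene model Gm7871 at 97.03% identity over 101 bases, and Gm7871 was not analysed here. The call was lost without WT 1 (0.15), WT 3 (0.186), labelled knockout 1 (0.133) or labelled knockout 3 (0.0936), with DESeq2 (0.0535), and with library totals as the only scaling (log2 fold change -0.10, adjusted p = 0.366).

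Pycard, the adaptor both sensors need to reach caspase-1, was the most scattered of the 9 tested genes. It was at 1.79, 2.30 and 4.26 CPM in the libraries labelled knockout and at 5.65, 1.96 and 5.94 CPM in the WT libraries, from raw counts of 38, 40 and 61 and of 159, 30 and 84. Labelled knockout 2 and 3 lay inside the WT range, and WT 2 inside the labelled knockout range. Its coefficient of variation was 46.7% in the libraries labelled knockout and 49.2% in the WT libraries. Of the tested genes within 1.5-fold of its mean level in the same group, 28 of 1088 varied more in the libraries labelled knockout and 0 of 1079 in the WT libraries. The log2 fold change was -0.75 ± 0.365 (SE, adjusted p = 0.107, edgeR). Without WT 2 it was -1.08 (adjusted p = 0.011) and without labelled knockout 3 it was -1.16 (adjusted p = 0.0218), so that 1 library decides the call. With any other library left out it was weaker, from -0.65 to -0.50 (adjusted p from 0.22 to 0.348, edgeR). Pycard shares 485 of its 3800 annotated exon bases with Gm45205 on the opposite strand, which had 19, 17 and 47 counts in the libraries labelled knockout and 55, 19 and 24 in the WT libraries. Those reads could not be told apart without strand, so the Pycard values are uncertain. There were 75.7, 70.7 and 44.6 reads of Nlrp3 per read of Pycard in the libraries labelled knockout and 21.6, 48.8 and 21.1 in the WT libraries. These ranges overlapped (log2 difference 1.14, exact two-sided permutation p = 0.2, 0.2 after adjustment over the 4 ratios).

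Both inflammatory caspases rose. Casp1, the protease of the canonical inflammasome, was at 57.5, 50.4 and 56.7 CPM in the libraries labelled knockout and at 39.1, 41.5 and 41.4 CPM in the WT libraries. The groups did not overlap and the log2 fold change was 0.43 ± 0.0884 (SE; adjusted p = 0.000716, edgeR). Casp4, the caspase of the non-canonical route, was at 47.8, 55.2 and 52.7 CPM in the libraries labelled knockout and at 16.9, 14.3 and 15.5 CPM in the WT libraries. Each labelled knockout library held more than any WT library by a wide margin, and the log2 fold change was 1.73 ± 0.103 (SE; adjusted p = 7.18e-10, edgeR), from 1.68 to 1.84 over the alternatives. Casp1 and Casp4 are neighbours on chromosome 9, on the same strand and 1563 bases apart in GENCODE M21. Their increases were of different size: there were 0.832, 1.09 and 0.930 reads of Casp4 per read of Casp1 in the libraries labelled knockout and 0.431, 0.345 and 0.374 in the WT libraries. The groups did not overlap, and the ratio was 2.48-fold higher in the libraries labelled knockout (log2 difference 1.31; exact two-sided permutation p = 0.1, adjusted over the 4 ratios 0.133). The next gene of the cluster, Casp12, was near 0, with 7, 0 and 0 counts in the libraries labelled knockout and 0, 1 and 0 in the WT libraries.

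Gsdmd, which encodes the pore-forming substrate of both caspases, was at 135, 115 and 128 CPM in the libraries labelled knockout and at 129, 150 and 154 CPM in the WT libraries. The groups overlapped, through labelled knockout 1 and WT 1. The log2 fold change was -0.19 ± 0.0842 (SE; adjusted p = 0.0718, edgeR). Without WT 1 it was -0.25 (adjusted p = 0.0215) and without labelled knockout 1 -0.25 (adjusted p = 0.0323). The side of the threshold thus depended on single libraries. Gsdmd was not called with any other library left out. With library totals as the only scaling its log2 fold change was -0.09 (adjusted p = 0.369, edgeR). With length and GC offsets it was -0.08 (adjusted p = 0.391, edgeR).

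**Figure D4:**
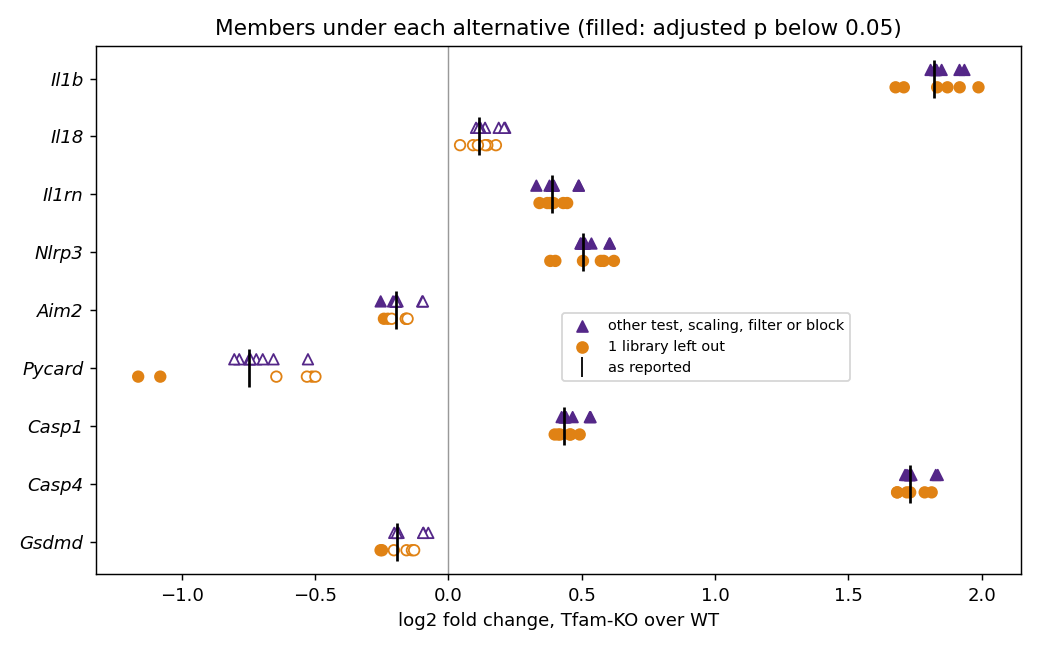
Log2 fold change, Tfam-KO over WT, of the 9 tested genes under each alternative (triangles for another test, scaling, filter or block, circles for 1 library left out, black bar as reported; filled where the adjusted p is below 0.05). The test against a 1.5-fold change is not drawn. No gene changes sign; Il1b, Il1rn, Nlrp3, Casp1 and Casp4 are filled throughout, Il18 never, and Aim2, Pycard and Gsdmd in some settings.

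Compared per kilobase of union exon length, which allows levels to be set between genes, Gsdmd was the most abundant of the 10 in both groups, at a mean of 53.0 CPM per kilobase in the libraries labelled knockout and 60.7 in the WT libraries. In the libraries labelled knockout the order then ran Nlrp3 (40.1 CPM per kilobase), Casp1 (36.7), Aim2 (32.3), Il1rn (20.1), Il18 (18.7), Casp4 (14.0), Il1b (3.62), Pycard (0.732) and Il1a (0.178). In the WT libraries it ran Aim2 (37.0), Nlrp3 (28.2), Casp1 (27.2), Il18 (17.3), Il1rn (15.3), Casp4 (4.19), Pycard (1.19), Il1b (1.00) and Il1a (0.0419). Neighbours in these orders whose libraries overlapped were Nlrp3 with Casp1 and Il1rn with Il18 in both groups, and Pycard with Il1b in the WT libraries. By these means Aim2 ranked above Nlrp3 and Casp1 in the WT libraries and below both in the libraries labelled knockout, where 1 Nlrp3 library lay within the Aim2 range, and Il1b stood above Pycard in the libraries labelled knockout only, where the 2 genes did not overlap. The lengths matter for some of these ranks. With the principal transcript of 2474 bases in place of 5535 exon bases, Il1rn was at 44.9 CPM per kilobase in the libraries labelled knockout and 34.3 in the WT libraries, and Casp4, with 1435 in place of 3710 bases, was at 36.2 in the libraries labelled knockout and 10.8 in the WT libraries. With principal transcripts Aim2 (39.8) was above Casp1 (36.7) in the libraries labelled knockout too, and Il1b (1.41) was above Pycard (1.19) in the WT libraries.

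Likeness of pattern over the 6 libraries was ranked by Euclidean distance of centred log2 CPM among about 10000 genes averaging at least 5 CPM. Il1b itself, at means of 6.90 CPM in the libraries labelled knockout and 1.91 CPM in the WT libraries, averaged below that cut. The genes most like Il1b were Slfn2 (distance 0.347), Plk4 (0.429), Gdf15 (0.473), Sqstm1 (0.48) and Adora2b (0.513). Their log2 fold changes were 1.84, 1.57, 1.88, 1.78 and 1.72, against 1.82 for Il1b. For Nlrp3 they were Ubox5 (distance 0.149), Fanci (0.197), Zfp382 (0.197), Lyrm9 (0.199) and Slc22a21 (0.218), with log2 fold changes of 0.53, 0.47, 0.49, 0.42 and 0.40. Both sets were ranked from the same 6 libraries and describe likeness of pattern only.

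The receptors, decoys and binding proteins of the IL-1 family were mostly low in level and did not move together. Of 10 tested, 2 rose and 4 fell, while 4 missed the threshold; the median log2 fold change was -0.19. Il1r2, the decoy receptor that binds IL-1β without signalling, fell most, to 1.75, 1.67 and 1.53 CPM in the libraries labelled knockout, against 8.71, 13.4 and 12.4 CPM in the WT libraries (log2 fold change -2.77, adjusted p = 2.79e-08, edgeR). No labelled knockout library came near a WT library. The signalling receptor Il1r1 was at 2.08 ± 0.746 CPM in the libraries labelled knockout and 2.58 ± 0.114 CPM in the WT libraries (SD, n = 3 each; adjusted p = 0.403, edgeR). Il18rap, the accessory chain of the IL-18 receptor, fell to 6.75, 8.44 and 6.42 CPM in the libraries labelled knockout, against 16.1, 16.0 and 18.7 CPM in the WT libraries (log2 fold change -1.23). The inhibitory receptor Sigirr fell by 0.80 and the IL-33 receptor Il1rl1 fell by 0.69 on the log2 scale. The 2 that rose were the IL-18 binding protein Il18bp (0.70) and the shared accessory chain Il1rap (0.59). Those 2 calls rested on single libraries: Il18bp reached an adjusted p of 0.0909 with 1 library left out (lost without WT 3 or labelled knockout 3) and Il1rap 0.165 (lost without WT 2 or labelled knockout 1 or 3, and with length and GC offsets at 0.0627).

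Of 20 tested genes of the relay from the receptor to NF-kB, 10 rose and 3 fell, while 7 missed the threshold. Over all tested genes 21.3% rose and 22.9% fell, and the median log2 fold change of the list was 0.20. Chuk (0.27), among those that rose, was not called without WT 2, WT 3, labelled knockout 2 or labelled knockout 3 (adjusted p up to 0.0843, edgeR). Nfkbia, the inhibitor IκBα, was at 363, 320 and 319 CPM in the libraries labelled knockout and at 85.3, 92.4 and 90.1 CPM in the WT libraries (log2 fold change 1.91, adjusted p = 6.31e-12, edgeR). Irak3, the IRAK-family member known as a negative regulator, rose to 23.8, 28.7 and 30.6 CPM in the libraries labelled knockout, against 8.71, 7.76 and 10.5 CPM in the WT libraries (log2 fold change 1.63). Nfkb1 had a log2 fold change of 1.28. For none of these did the groups overlap. Traf6, the ubiquitin ligase that IRAK kinases engage, moved the other way and fell to 13.0, 16.9 and 12.3 CPM in the libraries labelled knockout, against 41.7, 44.9 and 43.9 CPM in the WT libraries (log2 fold change -1.62). The kinases Irak4 (-0.32) and Irak1 (-0.25) also fell, but neither was called with library totals, which left Traf6 as the 1 gene of the list called lower, and Irak4 was not called without WT 2, WT 3 or labelled knockout 1. The adaptor Myd88 was not analysed here.

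Of the other inflammasome sensors, partners and regulators 22 were tested. In this list 4 rose and 13 fell, while 5 missed the threshold. Over all tested genes 21.3% rose and 22.9% fell. The median log2 fold change of the list was -0.32. With library totals as the only scaling 5 rose and 10 fell. Gbp5, a guanylate-binding protein linked to NLRP3 assembly, had 30, 31 and 41 raw counts in the libraries labelled knockout and 0, 4 and 4 in the WT libraries (log2 fold change 3.71, adjusted p = 0.000161, edgeR). It was low in both groups, and the groups did not overlap. Naip1, a sensor of bacterial secretion needles, fell to 5.34, 4.25 and 5.23 CPM in the libraries labelled knockout, against 13.7, 16.0 and 13.3 CPM in the WT libraries (log2 fold change -1.53). The sensor Nlrp1b (-1.28) and Nlrc4 (-1.13), the partner of the NAIP proteins, fell as well. Nod2 (0.68), Naip2 (0.33) and Dhx33 (0.27) were the others that rose, Dhx33 not without WT 2 (adjusted p = 0.0614). The Naip genes and the Nlrp1 pair are families of close copies, and the sources used here do not give how reads matching several places were counted, so their values are uncertain. Chosen after their values were seen, Nek7, a kinase needed for NLRP3 assembly, was at 65.3 ± 4.39 CPM in the libraries labelled knockout and 64.9 ± 1.67 CPM in the WT libraries (adjusted p = 0.942), and the ATP-gated channel P2rx7 was at 37.0 ± 0.919 CPM in the libraries labelled knockout and 43.3 ± 2.33 CPM in the WT libraries (adjusted p = 0.0429, not called with any library left out).

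**Figure D5:**
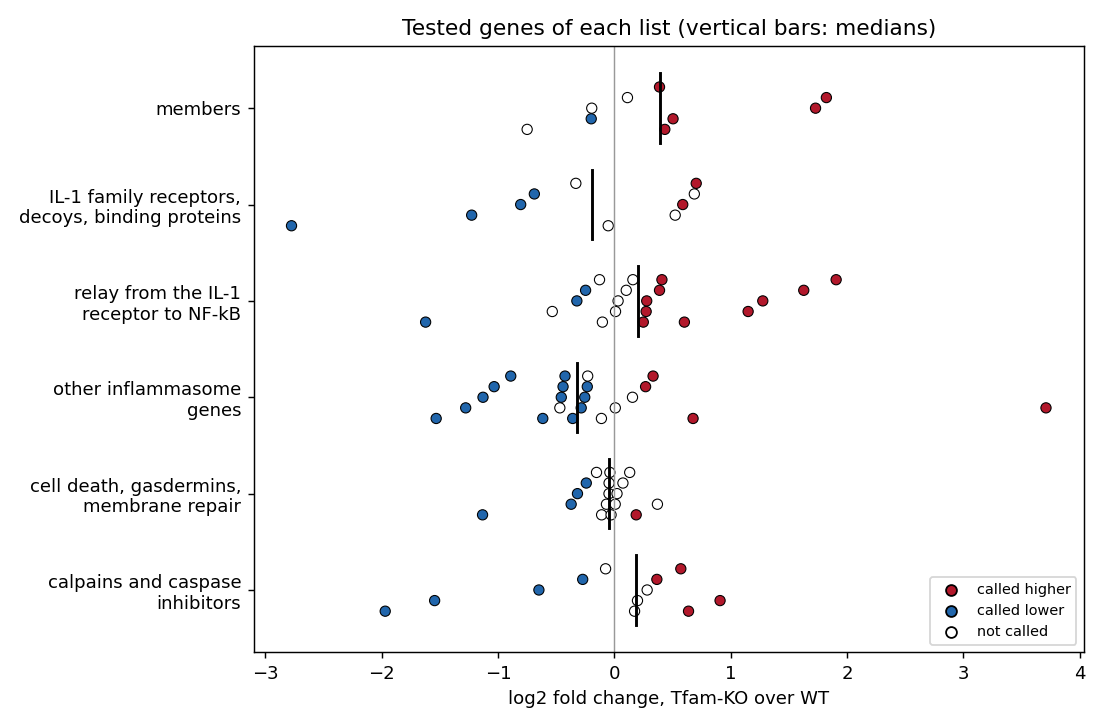
Log2 fold change, Tfam-KO over WT, of every tested gene in 6 groups of genes, 1 point per gene (red called higher, blue called lower, white not called), with a vertical bar at each median. The medians are 0.39 for the 9 interleukin-1 and inflammasome genes, -0.19 for receptors, 0.20 for the relay, -0.32 for other inflammasome genes, -0.04 for cell death and membrane repair and 0.19 for calpains and caspase inhibitors.

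Genes of cell death, pore formation and membrane repair moved little. Of 17 tested, 1 rose and 4 fell, while 12 missed the threshold; the median log2 fold change was -0.04. Casp6, an executioner-type caspase, fell to 11.2 ± 0.945 CPM in the libraries labelled knockout, against 24.7 ± 2.57 CPM in the WT libraries (SD, n = 3 each; log2 fold change -1.13, adjusted p = 1.15e-06, edgeR). The 2 groups were far apart. The kinase Ripk1 (-0.37), the membrane repair subunit Chmp2a (-0.32) and Casp8 (-0.24) fell by less, and the repair ATPase Vps4b (0.19) rose, with an adjusted p of up to 0.102 when 1 library was left out. Without WT 2 or without WT 3 the counts were 2 lower and 0 higher, and with library totals 2 lower and 2 higher.

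Among 12 calpains and caspase inhibitors, 4 rose and 4 fell, while 4 missed the threshold; the median log2 fold change was 0.19. Serpinb1a, a serpin known to restrain inflammatory caspases, fell to 229, 194 and 205 CPM in the libraries labelled knockout, against 767, 885 and 811 CPM in the WT libraries (log2 fold change -1.97, adjusted p = 1.87e-11, edgeR). Capn1, one of the calpains that can cut the IL-1α precursor, fell to 46.7, 38.3 and 48.1 CPM in the libraries labelled knockout, against 123, 130 and 136 CPM in the WT libraries (log2 fold change -1.54, adjusted p = 5.04e-10, edgeR). Neither pair of groups overlapped. Capn2 (-0.65) and the shared small calpain subunit Capns1 (-0.27) fell with it, the groups overlapping for Capns1, whose adjusted p reached 0.104 with 1 library left out. Birc3 (0.91), an inhibitor of apoptosis protein, Serpinb9 (0.64), an inhibitor of granzyme B, and Cflar (0.57), an inhibitor of caspase-8, rose. Serpinb1b (0.37) rose too, but is a close relative of Serpinb1a and lost its call without WT 2, WT 3, labelled knockout 1 or labelled knockout 3 (adjusted p up to 0.0938).

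Marker genes of other cell types were also read, and their part in the changes above was not tested. In the WT libraries the summed neuron and neutrophil markers were above Il1b (1.91 ± 0.438 CPM, n = 3). Among 3 neutrophil markers in the table, 1 was tested and fell, S100a8 (1.05 ± 0.197 CPM in the libraries labelled knockout and 5.44 ± 1.59 CPM in the WT libraries), and the list summed to 1.49 to 1.74 CPM in the libraries labelled knockout and 4.76 to 7.56 CPM in the WT libraries; S100a9, Ly6g, Mpo, Elane and Ltf were not analysed here. Of 3 tested neuron markers Syn1 fell (-1.17), while Syt1 (0.27) and Map2 (-0.21) were not called. The list summed to 7.81 to 9.54 CPM in the libraries labelled knockout and 16.4 to 17.6 CPM in the WT libraries. Syn1 alone made up most of these sums, at 6.45 ± 0.620 CPM in the libraries labelled knockout and 14.5 ± 0.858 CPM in the WT libraries. The 1 tested fibroblast marker, Pdgfra, fell (-2.29), with sums of 0.488 to 0.614 CPM in the libraries labelled knockout and 1.64 to 2.83 CPM in the WT libraries. The 1 tested astrocyte marker, Slc1a2, did not pass, with sums of 0.944 to 1.54 CPM in the libraries labelled knockout and 0.978 to 1.46 CPM in the WT libraries.

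Genes beside the 10 on the chromosome were also read, from the order in GENCODE M21. Il1a and Il1b lie 54598 bases apart on chromosome 2. Ckap2l, a mitotic spindle gene 2398 bases from Il1a, rose: it was at 51.3, 49.7 and 46.4 CPM in the libraries labelled knockout and at 24.7, 21.5 and 21.1 CPM in the WT libraries (log2 fold change 1.12, adjusted p = 9.11e-08, edgeR). The groups were well apart. Psd4, next to Il1rn, fell by 0.24 on the log2 scale, and Zkscan17, next to Nlrp3, rose by 0.32. Ifi206, which encodes a relative of AIM2 and lies 2445 bases from Aim2, had 18, 32 and 10 counts in the libraries labelled knockout and 20, 9 and 3 in the WT libraries, with overlapping groups (adjusted p = 0.0927).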

How the data were processed

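RNA-seq counts of 6 BV2 libraries were used, 3 labelled Tfam knockout and 3 WT, grouped by their titles. The authors deposited raw whole-number counts for each gene. The submitters' processing notes name featureCounts 2.0.0, HISAT2 2.1.0, bcl2fastq 2.17 and SAMtools 1.9, with GRCm39. Per the labels' protocols, libraries came from a NEBNext Ultra kit, which does not mark strand. A second table deposited by the authors holds log2 values, from their arithmetic log2 of the scaled count plus 8; with the 8 replaced by 1 it served as an alternative in limma 3.58.1.

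The test was edgeR 4.0.16 (R 4.3.3; TMM scaling, filterByExpr, glmQLFit and glmQLFTest without covariates), with Benjamini-Hochberg adjustment over 13403 genes; 4469 genes were left untested. Dividing a log2 fold change by the square root of its F gave the SE. Totals were 13850691 to 28418133 counts; replicates differed beyond sampling noise (chi-square per degree of freedom 5.33 to 15.2), and intervals cover counting error only. The genes and lists were chosen with earlier results of these data known. Named in the text were the 10 genes, Tfam, and in each list up to 4 called genes averaging 1 CPM or more and changing most, plus all called one way where 5 or fewer were, the most abundant marker of each other cell type, and the 5 genes most like Il1b and Nlrp3; other names were chosen after their values were seen. Lengths (known for 99.5% of tested genes), gene order and overlaps came from GENCODE M21, which is on GRCm38. Since the authors used GRCm39, coordinates are left out except for the promoter windows shown, which are on GRCm38.p6. Near-identical copies of the 10 genes were sought with BLAST 2.17.0 at 95% identity or more over at least 100 bases, which matched Aim2, Il1a and Pycard to 1 other gene each. Each library was left out in turn, and further alternatives were a 1.5-fold test, limma-voom, DESeq2 1.42.0, the authors' log2 table, library totals, median-ratio factors, length and GC offsets, the replicate block, and no filter or a stricter one (5 CPM in 3 libraries). The edgeR step was also run on simulated counts in which few genes changed. Many genes were called in these data, so that run does not check the calls made here.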

Additional observations from a re-analysis of the deposited data

How the results depend on the processing

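Il1b and Casp4 were called higher under every alternative tried, and Il1rn, Nlrp3 and Casp1 under every one but the test against a 1.5-fold change, which left 2 of the 9 genes called higher, 0 lower, and 1094 of the 13403 tested genes. Aim2 was lower in every setting but was called in 6 of 16: 0 of the 9 genes were called lower with DESeq2, library totals, no filter on low counts, the replicate block or the authors' log2 table, and 0 to 2 with 1 library left out. Over all genes, 4847 to 5743 were called with 1 library left out. With library totals the median log2 fold change over all genes was 0.10, and 61.8% of called genes were then higher, against 48.2% as reported (61.6% with the authors' log2 table); the cause was not tested. No gene of the 9 changed sign. Samples with the same replicate number did not deviate together (correlations -0.10, -0.11 and 0.04), so the numbers were not taken as pairs; with the replicate block 5255 genes were called. With 1 library left out, the log2 difference between groups ran from 1.29 to 1.64 for Il1b over Il1rn, 1.2 to 1.4 for Casp4 over Casp1 and 0.933 to 1.54 for Nlrp3 over Pycard. The filter on low counts left Il1a, at 0 to 11 counts per library, untested.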
